A study of Mus musculus with 26 samples.

Results

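Heavy-chain transcripts of 7 immunoglobulin variable (V) genes of the mouse IGHV1 family are described here: IGHV1-50, IGHV1-52, IGHV1-54, IGHV1-55, IGHV1-59, IGHV1-61 and IGHV1-69. They were taken as every sequence whose V call equalled one of these names, and they are 7 of the 188 V genes called in the tables, beside 52 other IGHV1 genes. All 7 matched a RefSeq V segment on chromosome 12 of GRCm38.p6, the assembly behind mm10. They lie within 503.8 kb, from IGHV1-50 (115119748 to 115120041) through IGHV1-52 (115145487 to 115145780), IGHV1-54 (115193675 to 115193968), IGHV1-55 (115208137 to 115208527), IGHV1-59 (115335057 to 115335513) and IGHV1-61 (115359140 to 115359433) to IGHV1-69 (115623203 to 115623595). Between them the 7 genes gave 142524 of 1674869 clonotypes. A clonotype is a distinct junction nucleotide sequence with its V and J gene, counted within one replicate.

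The mice were wild type and had been associated with Staphylococcus epidermidis, a commensal of the skin, in a series on germinal centres that form in skin. Skin, spleen and lymph node were each sampled in 4 biological replicates, with 2 technical libraries per replicate that were summed. A positive control with 1 replicate, labelled as B cells of wild-type genotype without treatment, was sequenced the same way, and its source was not described further. The tissue field reads ear skin for every tissue library, so the tissue was taken from the sample titles. No group without the bacterium was analysed here. The labels number the replicates of each tissue but do not say whether a number marks the same mouse across tissues, and the p-values measure only the spread between these samples.

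A heavy-chain V gene encodes the first part of the antibody variable domain, with its CDR1 and CDR2 loops, and is joined to a D and a J segment during B cell development. The junction forms the CDR3 loop, which usually contributes most to binding. Activated B cells can exchange IgM for another isotype such as IgA or IgG2 and can mutate the joined V gene in germinal centres. IgA is the main antibody of mucosal surfaces, and IGHV1 is the largest V family of the mouse heavy-chain locus.

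The unmutated sequences of the 7 genes are shown because their likeness bears on every count below. Each is the most common sequence, among tissue sequences without a V mismatch, of the 144 bases from the first CDR2 codon to the second codon after the cysteine codon that opens the junction. Capitals mark bases that differ from IGHV1-69.
IGHV1-69: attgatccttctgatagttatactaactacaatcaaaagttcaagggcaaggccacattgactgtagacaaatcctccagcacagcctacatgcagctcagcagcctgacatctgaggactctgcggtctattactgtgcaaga
IGHV1-59: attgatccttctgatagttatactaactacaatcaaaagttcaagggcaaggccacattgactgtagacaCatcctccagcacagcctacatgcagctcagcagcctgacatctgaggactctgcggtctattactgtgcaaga
IGHV1-50: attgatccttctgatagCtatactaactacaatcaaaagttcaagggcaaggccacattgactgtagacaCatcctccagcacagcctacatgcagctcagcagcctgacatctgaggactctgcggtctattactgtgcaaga
IGHV1-52: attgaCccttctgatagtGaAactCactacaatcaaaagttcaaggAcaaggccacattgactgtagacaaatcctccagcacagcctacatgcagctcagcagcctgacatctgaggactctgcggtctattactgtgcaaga
IGHV1-61: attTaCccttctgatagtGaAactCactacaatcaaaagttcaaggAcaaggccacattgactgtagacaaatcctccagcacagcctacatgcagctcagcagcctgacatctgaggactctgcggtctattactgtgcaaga
IGHV1-55: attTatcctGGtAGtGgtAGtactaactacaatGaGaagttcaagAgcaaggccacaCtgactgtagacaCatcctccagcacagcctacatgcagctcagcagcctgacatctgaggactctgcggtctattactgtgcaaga
IGHV1-54: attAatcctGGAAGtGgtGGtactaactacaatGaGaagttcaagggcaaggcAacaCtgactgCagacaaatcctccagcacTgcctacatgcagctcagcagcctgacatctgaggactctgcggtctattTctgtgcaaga

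The 7 sequences fell into 2 tight groups and 2 separate genes. IGHV1-50, IGHV1-59 and IGHV1-69 differed from one another at 1 or 2 of 144 bases, and IGHV1-52 and IGHV1-61 differed at 1. IGHV1-55 and IGHV1-54 differed from IGHV1-69 at 13 and 16 bases and from each other at 9. Their nearest segments were not members: IGHV1-64 lay 5 bases from IGHV1-55 and IGHV1-76 lay 7 bases from IGHV1-54. Within a tight group a single mutation can change the call, so the split between IGHV1-50, IGHV1-59 and IGHV1-69 and that between IGHV1-52 and IGHV1-61 are uncertain for mutated reads. In spleen, the J gene and junction of 20.5% (IGHV1-69) to 27.2% (IGHV1-61) of member clonotypes were also listed under another V gene in the same replicate, against 15.5% over all V genes. This sharing did not follow sequence likeness throughout. Of IGHV1-50 clonotypes, 6.32% were also under IGHV1-55 and 2.80% under IGHV1-59. Of IGHV1-52 clonotypes, 5.94% were also under IGHV1-55 and 7.79% under IGHV1-61. How much of the sharing stems from uncertain calls was not tested.

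Skin was shallow, with 275 to 350 clonotypes per replicate, of which 21 to 45 were members. Spleen held 25645 to 438995, lymph node 27520 to 117561 and the control 386982 clonotypes. The 7 genes together made up 10.6%, 6.56%, 14.0% and 13.8% of clonotypes in skin replicates 1 to 4, 12.7%, 9.41%, 10.6% and 11% in spleen, 9.18%, 11.2%, 9.82% and 9.28% in lymph node and 2.74% in the control. The 3 tissues overlapped, and the control lay below every tissue sample.

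IGHV1-55 was the most used of the 7 in spleen and lymph node. In spleen it took 6.66%, 3.77%, 4.51% and 4.69% of clonotypes, rank 2 or 3 among all V genes, and in lymph node 2.93%, 3.16%, 2.94% and 3.04%, rank 7 or 8. The 2 ranges did not overlap. The share of all V genes without overlap between spleen and lymph node was not computed, for this gene or for those below. In the test given below, 22% of 91 V genes differed between these tissues. Skin was more scattered, at 3.43%, 1.56%, 6.83% and 1.45%, and the pooled 43 of 1267 skin clonotypes gave 3.39% with an exact binomial 95% interval of 2.47 to 4.54%, which covers counting error only. IGHV1-69 followed in spleen (2.35%, 1.77%, 2.41% and 2.39%) and lymph node (2.13%, 2.73%, 2.31% and 2.10%). Its skin values of 1.43%, 1.88%, 1.86% and 1.82%, from 5, 6, 6 and 5 clonotypes, all lay below the lymph node range. That difference was not called (log2 -0.50, edgeR's quasi-likelihood test, Benjamini-Hochberg adjusted p = 0.401). The share of all V genes without overlap between skin and lymph node was not computed either.

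IGHV1-50, which differs from IGHV1-59 at 1 base, held 1.10%, 1.39%, 1.39% and 1.31% of spleen clonotypes and 1.53%, 1.89%, 1.84% and 1.59% of lymph node clonotypes. Every lymph node value lay above every spleen value. IGHV1-54 ran the other way, with 1.45%, 1.01%, 0.838% and 0.818% in spleen and 0.741%, 0.680%, 0.697% and 0.756% in lymph node. In skin, IGHV1-50 took 3.14%, 0.625%, 0.932% and 2.91% and IGHV1-54 took 0.857%, 0.3125%, 0.932% and 2.91%, so each spanned both other tissues.

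The sequence twins IGHV1-52 and IGHV1-61 differed widely in use. IGHV1-52 was the rarest of the 7, at 0.0741%, 0.0376%, 0.0639% and 0.0528% in spleen and 0.102%, 0.0987%, 0.115% and 0.0967% in lymph node, without overlap. No IGHV1-52 clonotype was found among the 1267 of skin, which allows a share of up to 0.237%, so the spleen and lymph node levels were not detectable at the depth of skin. IGHV1-61 held 0.265%, 0.679%, 0.565% and 1.09% in spleen, 0.876%, 1.57%, 0.914% and 0.844% in lymph node and 0%, 1.56%, 1.55% and 2.18% in skin. IGHV1-59 held 0.784%, 0.753%, 0.871% and 0.690% in spleen, 0.879%, 1.08%, 1.0% and 0.848% in lymph node and 1.71%, 0.625%, 1.86% and 2.55% in skin. Its 3 higher skin samples lay above all spleen and lymph node samples and the fourth lay below them.

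**Figure D1:**
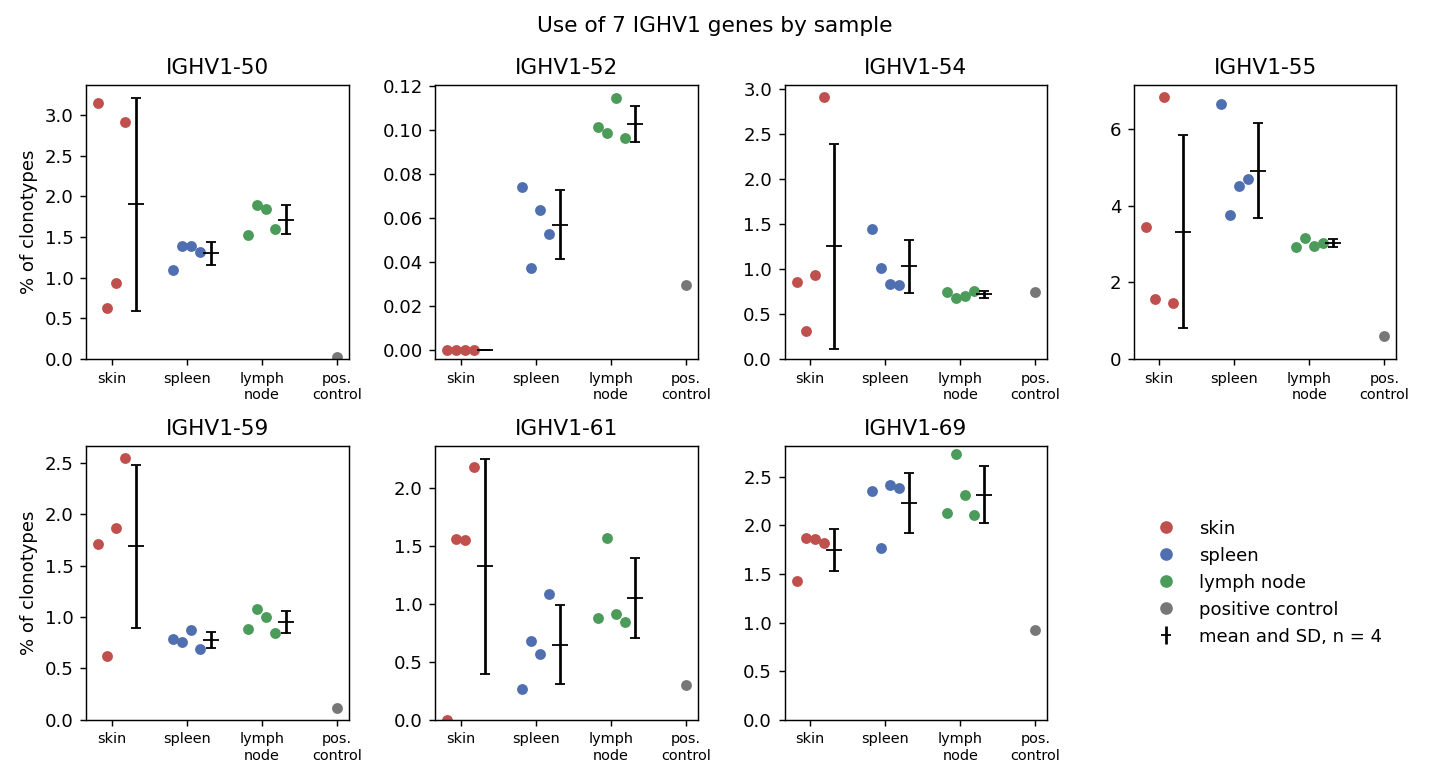
Share of clonotypes (vertical axis, %, a separate linear scale for each gene) held by each of the 7 genes in each replicate of skin, spleen, lymph node and positive control; bars give the mean and SD of 4 replicates. IGHV1-55 was higher and IGHV1-52 lower in all 4 spleen replicates than in all 4 lymph node replicates, and skin was the most scattered tissue for every gene except IGHV1-52, which was at 0 there, and IGHV1-69.

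Gene use was compared between tissues with edgeR's quasi-likelihood test on clonotypes per V gene, with Benjamini-Hochberg adjustment over all V genes tested. None of the 7 passed an adjusted p of 0.05 between skin and spleen (7.69% of 91 V genes did, 4.4% higher and 3.3% lower in skin), between skin and lymph node (0%) or between spleen and lymph node (22%, of which 7.69% higher and 14.3% lower in spleen). At an unadjusted p under 0.05 the member counts were 1, 0 and 2. Other V genes had lower p-values: IGHV1-59 ranked 14 of 91 by p between skin and spleen. Between spleen and lymph node, IGHV1-52 and IGHV1-55 ranked 24 and 26 of 91. DESeq2 called 1, 1 and 3 members, but in each comparison it also called more of all V genes than edgeR did. The median log2 difference of the members was 0.09 for skin against spleen (all V genes -0.28), 0.05 for skin against lymph node (-0.19) and -0.28 for spleen against lymph node (-0.12). The comparisons share samples.

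The members nearest the threshold between spleen and lymph node were the most and the least used. IGHV1-55 was higher in spleen by 0.74 on the log2 scale (SE 0.28; edgeR's quasi-likelihood test, Benjamini-Hochberg adjusted p = 0.0607; 4 of 4 spleen samples above all lymph node samples). It passed when DESeq2 was used (0.77, adjusted p = 0.0283) and when the fit held only the 2 tissues (0.88, adjusted p = 0.0110). Counted as lineages, groups of clonotypes with the same V and J gene, one CDR3 length and at least 85% identical CDR3 bases, the difference was 0.46 (adjusted p = 0.206). IGHV1-52 was lower in spleen, with a difference of -0.89 (SE 0.32; adjusted p = 0.0576; 4 of 4 samples below all lymph node samples), and DESeq2 gave -0.87 (adjusted p = 0.0111).

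IGHV1-59 came nearest to the threshold between skin and spleen, with a log2 difference of 0.99 (SE 0.38; edgeR's quasi-likelihood test, Benjamini-Hochberg adjusted p = 0.105; higher in 3 of 4 skin samples). DESeq2 gave 1.30 (adjusted p = 0.00200) and, for skin against lymph node, 1.05 (adjusted p = 0.0203). In edgeR the difference from spleen was 0.34 (adjusted p = 0.611) without spleen replicate 4, 0.65 without skin replicate 3 or 4, 0.60 (adjusted p = 0.517) for lineages and 0.10 (adjusted p = 0.911) for copies. IGHV1-55 was lower in skin than in spleen by a log2 difference of -0.70 (adjusted p = 0.262), and without skin replicate 3, where it reached 6.83%, by -1.52 (adjusted p = 0.0217).

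When IgM clonotypes alone were counted, IGHV1-69 was lower in skin than in spleen, with a log2 difference of -1.48 (SE 0.43; edgeR's quasi-likelihood test, Benjamini-Hochberg adjusted p = 0.0410; 6.67% of 90 V genes called, 5.56% lower). Its mean share of IgM clonotypes was 1.05% ± 0.70 (SD, n = 4) in skin and 2.12% ± 0.26 in spleen. The skin shares ran from 0.575 to 2.09% of 235, 174, 191 and 145 IgM clonotypes, so each rested on few clonotypes. No fit of IgM alone without single replicates was run. The median log2 difference over all V genes was -0.68. In IgD the share of IGHV1-69 ran the other way, at 5.92% ± 4.69 in skin and 2.74% ± 0.54 in spleen. It held 3 of 66, 5 of 47, 0 of 49 and 4 of 47 skin IgD clonotypes. The IgD difference was not tested. IGHV1-52 was lower in spleen IgM than in lymph node IgM by a difference of -0.95 (SE 0.32; adjusted p = 0.0322; 26.7% of 90 called). No member differed between skin and lymph node IgM (1.11% of 90 called), where IGHV1-69 had an unadjusted p of 0.00298 and an adjusted p of 0.107, and the other 6 had unadjusted p-values above 0.05.

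Isotypes were compared within spleen, where a clonotype counts in each isotype in which it had a copy and the replicate was a block because both isotypes come from the same libraries. The 7 genes together made up 10.8%, 8.87%, 10.2% and 10.3% of IgM clonotypes in spleen replicates 1 to 4 and 17.7%, 12.9%, 13.9% and 18% of IgA clonotypes. IgA was higher in each replicate. IGHV1-55 took 5.49%, 3.52%, 4.41% and 4.50% of IgM clonotypes and 11.4%, 6.02%, 6.33% and 7.98% of IgA clonotypes, the largest IgA share of the 7 genes in every spleen.

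Between IgA and IgM, 3 of the 7 genes were higher in IgA (16.7% of 84 V genes) and none was lower (17.9%; 34.5% in either direction). The test was edgeR's quasi-likelihood test, adjusted by Benjamini-Hochberg over the 84. IGHV1-55 had the lowest p of all 84 V genes, with a log2 difference of 0.87 (SE 0.14; adjusted p = 4.29e-05; higher in 4 of 4 replicates), and stayed past the threshold without any one replicate (0.75 to 0.95) and as lineages (0.34, adjusted p = 1.4e-04). IGHV1-59 rose by 1.01 (SE 0.30; adjusted p = 0.0180), from 0.684%, 0.660%, 0.722% and 0.616% of IgM to 1.05%, 1.23%, 2.31% and 0.840% of IgA. That call was lost without spleen replicate 2 (adjusted p = 0.125) or 3 (0.155). IGHV1-61 rose by 1.02 (SE 0.38; adjusted p = 0.0386), from 0.220%, 0.665%, 0.539% and 0.799% of IgM to 0.467%, 0.710%, 0.480% and 5.0% of IgA. Without spleen replicate 4 the difference was 0.36 (adjusted p = 0.643), and the call was also lost without replicate 1 (0.161) or 2 (0.0672), with DESeq2 (0.104), with no filter on low counts (0.0545) and for clonotypes of 2 or more copies (0.0934). Counted as lineages, IGHV1-59 (0.83, adjusted p = 8.27e-05) and IGHV1-61 (0.80, adjusted p = 0.000408) stayed past the threshold.

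The other 4 members did not pass between IgA and IgM. IGHV1-54 had a log2 difference of 0.56 (SE 0.33; edgeR's quasi-likelihood test, Benjamini-Hochberg adjusted p = 0.205), IGHV1-52 of 0.87 (SE 0.55), IGHV1-50 of 0.09 (SE 0.27) and IGHV1-69 of -0.07 (SE 0.23). Counted as lineages, IGHV1-54 passed too (0.80, adjusted p = 4.14e-05). The median over the 7 was 0.87, against 0.52 over 9 neighbouring IGHV1 genes (numbered 1-47 to 1-72), 0.40 over 36 other IGHV1 genes and -0.09 over all 84 V genes. Among the neighbours 2 rose and 1 fell, and among the 36 others 7 rose and 1 fell.

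When the count was limited to clonotypes with a sequence free of V mismatches, a setting chosen after seeing the data, 0 of 7 members and 2 of 73 V genes were called, 13 of the 73 at an unadjusted p under 0.05, and IGHV1-55 differed by 0.13 (adjusted p = 0.582). The difference between the mutated and the mismatch-free counts was not tested.

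**Figure D2:**
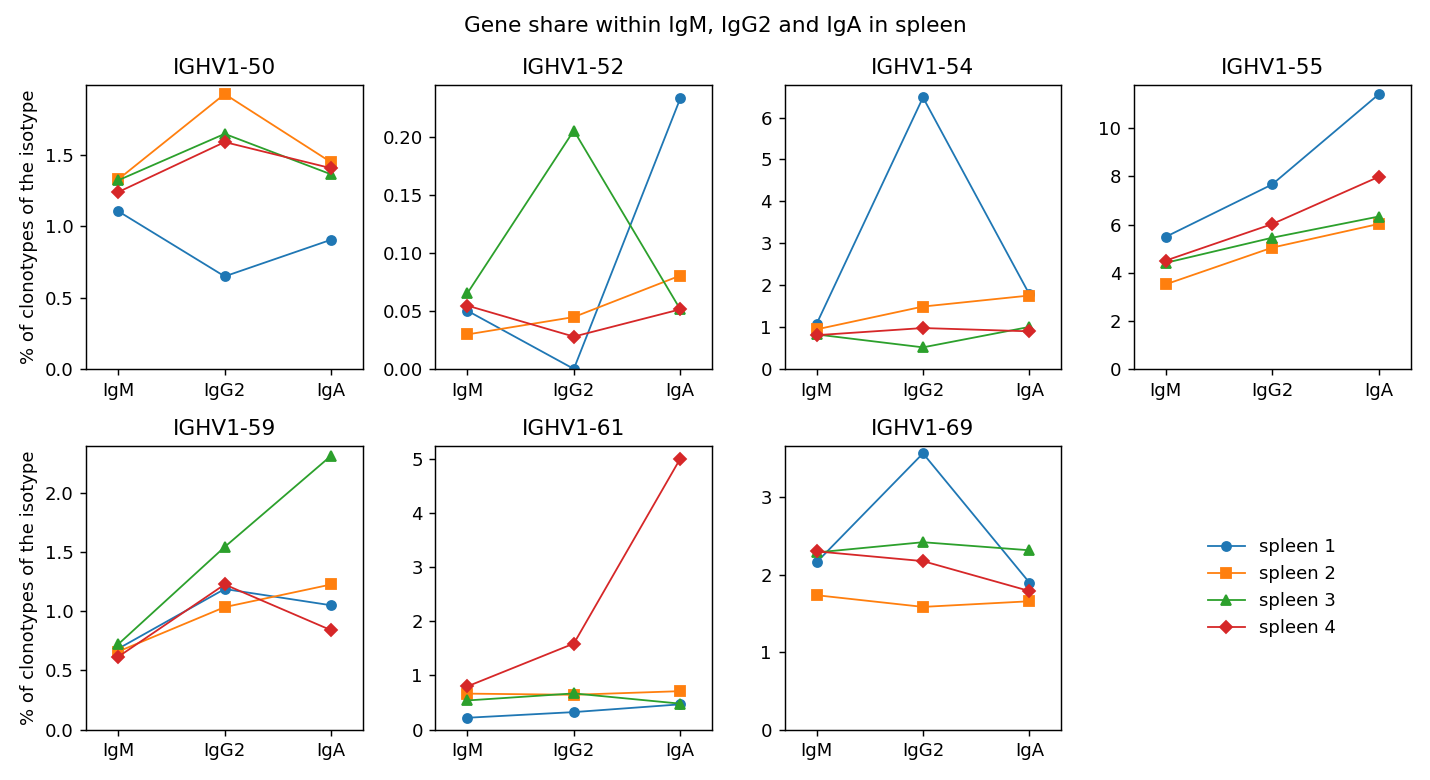
Share of the clonotypes of IgM, IgG2 and IgA (vertical axis, %, a separate scale for each gene) held by each gene in the 4 spleen replicates, with a line for each replicate. IGHV1-55 rose from IgM to IgA in every replicate, while IGHV1-61 reached 5.0% of IgA in spleen replicate 4 and at most 0.710% in the others.

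In lymph node, IgA was thin, with 223, 467, 287 and 460 clonotypes, and was not tested. IGHV1-55 held 10.8%, 3.85%, 5.23% and 6.52% of them, each above the 2.93% to 3.16% it held of all lymph node clonotypes. In skin it held 1 of 50, 0 of 97, 8 of 85 and 1 of 92 IgA clonotypes, so its skin IgA came almost wholly from replicate 3.

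For IgG2, 1 of 7 members was higher than in spleen IgM (3.57% of 84 V genes) and none lower (8.33%). IGHV1-55 held 7.67%, 5.04%, 5.45% and 6.02% of IgG2 clonotypes, a log2 difference of 0.41 (SE 0.14; edgeR's quasi-likelihood test, Benjamini-Hochberg adjusted p = 0.0481; higher in 4 of 4 replicates). The call was lost without any one of the 4 replicates (adjusted p 0.102 to 0.230) and with DESeq2 (0.181), and it stood for lineages (0.62, adjusted p = 9.91e-11). IGHV1-54 reached 6.48% of IgG2 in spleen replicate 1 against 1.49%, 0.514% and 0.975% in the others.

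Between IgG2 and IgM in lymph node, 0 of 7 members and 0% of 79 V genes were called. IGHV1-61 came nearest, at 1.52%, 3.32%, 0.656% and 2.29% of IgG2, with a log2 difference of 1.09 (SE 0.37; edgeR's quasi-likelihood test, Benjamini-Hochberg adjusted p = 0.0827, the one member at an unadjusted p under 0.05). As lineages it passed (0.99, adjusted p = 0.000147). Of IgG1 clonotypes in lymph node replicate 2, IGHV1-61 held 15.1% (79 of 524), against 0%, 3.36% and 0.709% in the others.

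V mutation was measured as the percent of aligned V bases that differed from the germline call, averaged over clonotypes. IgA clonotypes of IGHV1-55 stood at 4.23%, 3.70%, 4.3% and 4.50% in spleen, against 3.11%, 2.95%, 3.37% and 3.24% over all V genes. In each replicate it lay above the value of all V genes, ranking 6 of 43, 12 of 84, 8 of 72 and 6 of 77 V genes with 20 or more IgA clonotypes. IGHV1-54 (2.54 to 2.89%) and IGHV1-69 (2.23 to 3.03%) lay below the value of all V genes in each replicate in IgA, and IGHV1-50 (2.85 to 4.97%) and IGHV1-59 (2.49 to 4.65%) spread on both sides. These are descriptions, with no test between genes.

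In IgM the mean was at most 1.40% in every member and spleen replicate. IGHV1-55 IgM stood at 1.02%, 1.10%, 0.593% and 0.766% in spleen and 0.682%, 0.545%, 0.552% and 0.485% in lymph node. No member differed between spleen and lymph node IgM (6 tested, IGHV1-52 having too few clonotypes; 0% of 73 V genes called by limma with Benjamini-Hochberg adjustment). IGHV1-55 differed by 0.304 points (SE 0.113; unadjusted p = 0.0281, adjusted p = 0.666) and IGHV1-59 by 0.180 points (unadjusted p = 0.0330, adjusted p = 0.666), and the other 4 had unadjusted p-values above 0.05.

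**Figure D3:**
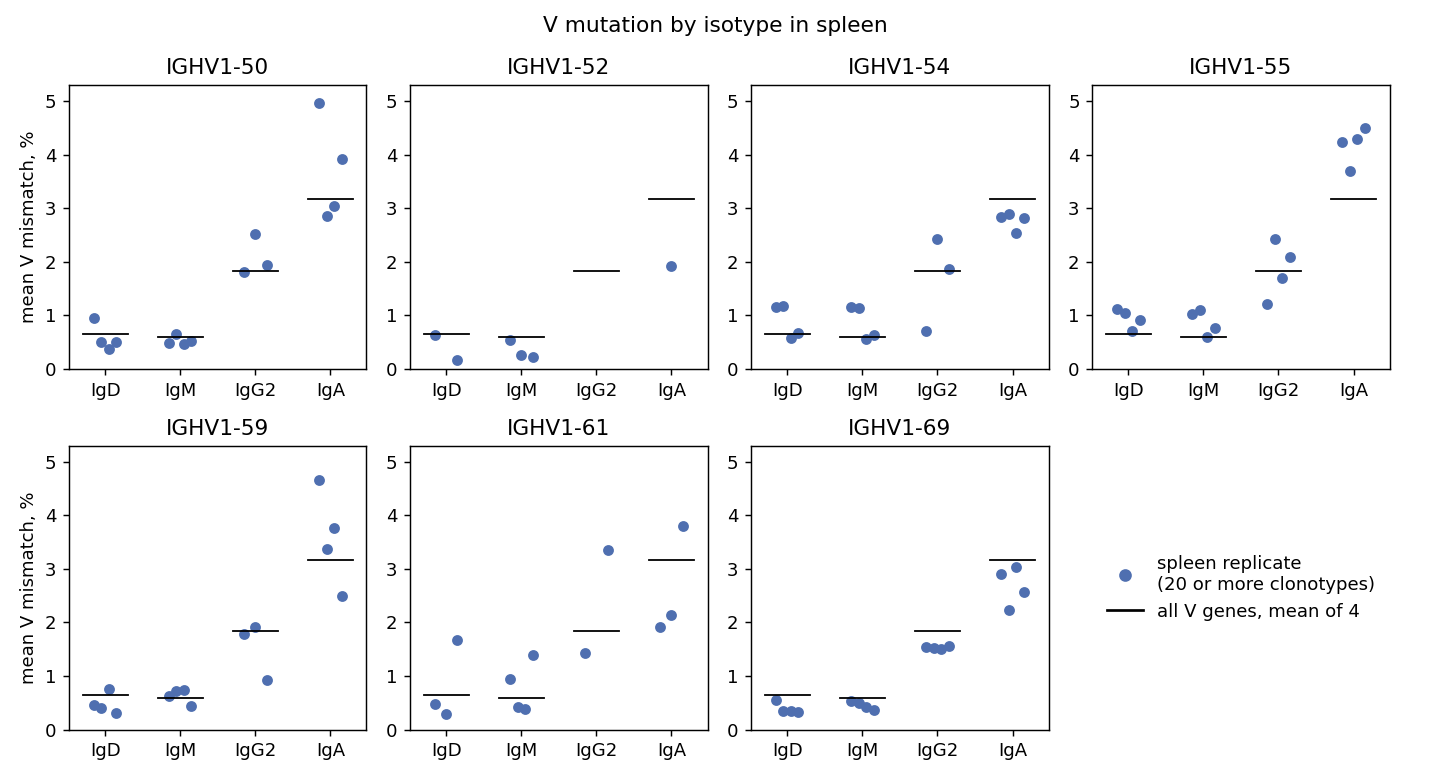
Mean V mismatch (vertical axis, %) of each gene by isotype in spleen, with a point for each replicate with 20 or more clonotypes and a line at the mean of 4 replicates for all V genes. By the mean of its points, IgA was the most mutated isotype of each gene with more than 1 IgA point, and the 4 IGHV1-55 IgA points (3.70 to 4.50%) lie above the line.

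IGHV1-55 IgA also stood out for its J gene. IGHJ3 made up 49.9%, 50.3%, 50.5% and 55.7% of its IgA clonotypes in spleen, against 34.1%, 23.5%, 24.8% and 31.7% over all V genes, rank 5, 1, 7 and 3 among V genes. In its IgM clonotypes IGHJ3 made up 13.1%, 10.6%, 12.6% and 13.1%. The mean CDR3 of its IgA clonotypes was 11.8 to 11.9 amino acids in all 4 replicates.

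Part of this IGHJ3 share was a set of junctions of one length that encode the same residues at 4 codons, which was found in every spleen. The set was defined after its values were seen, as IGHV1-55 with IGHJ3 and a junction of 39 bases with aspartate codons at codons 5 and 7 and phenylalanine and alanine codons at codons 10 and 11. The codons at 10 and 11 are not particular to the set. An IGHV1-55 IGHJ3 junction outside it, that of 4331 copies in spleen 4 given below, has them at the same place. What IGHJ3 itself supplies of the likeness was not tested. The largest junction of the set in each spleen is shown because the set held many of the IGHV1-55 IgA copies; capitals mark bases that differ from that of spleen replicate 2.
Spleen replicate 1 (616 copies): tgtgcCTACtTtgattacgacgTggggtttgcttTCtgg
Spleen replicate 2 (6951 copies): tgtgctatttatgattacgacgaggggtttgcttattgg
Spleen replicate 3 (1630 copies): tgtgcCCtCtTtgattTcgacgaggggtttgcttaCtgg
Spleen replicate 4 (2637 copies): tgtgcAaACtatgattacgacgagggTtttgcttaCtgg

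The largest junctions of spleens 1, 3 and 4 differed from that of spleen 2 at 8, 6 and 5 of 39 bases, and what codons 5, 7, 10 and 11 encode is alike by the rule. The set held 99, 453, 174 and 227 clonotypes in the 4 spleens, which fell into only 2, 4, 6 and 7 lineages. It held 2232, 30552, 6964 and 11136 copies, of which 97.1 to 99.0% were IgA. It made up 24%, 21.5%, 22.2% and 15.4% of IGHV1-55 IgA clonotypes and 35.5%, 76.2%, 69.3% and 39.4% of IGHV1-55 IgA copies. Of all IgA copies in spleen, over every V gene, it took 4.35%, 7.19%, 5.27% and 4.49%. Copies depend on both the number of cells and the RNA of each: in bulk libraries, fewer cells of a type and less RNA per cell cannot be told apart.

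Its clonotypes were mutated, at a mean of 3.50%, 5.07%, 5.94% and 5.79% of V bases, and 10, 23, 14 and 11 of them had a sequence without a mismatch. The set made up 1.59 to 5.80% of all IGHV1-55 clonotypes in spleen. The junction pattern was not confined to IGHV1-55. Under other V genes it was counted in 42, 738, 336 and 341 clonotypes of spleens 1 to 4, 0.117 to 0.175% of theirs. The largest IGHV1-55 lineage by copies in each spleen was an IGHJ3 lineage with a CDR3 of 11 amino acids, the length that the 13-codon junctions of the set encode. Without the set, a setting added after seeing the data, IGHV1-55 took 8.91%, 4.79%, 5.0% and 6.84% of IgA clonotypes. Its difference from IgM was then 0.54 (edgeR's quasi-likelihood test, Benjamini-Hochberg adjusted p = 0.00762), higher in 4 of 4 replicates. The set held 94, 435, 164 and 215 IGHV1-55 IgA clonotypes, and the largest IgA lineage of the gene held 147, 698, 254 and 317. Part of that lineage therefore stayed in the count, and the difference without the whole lineage was not tested.

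The exact junctions were mostly private to a replicate number. Spleens 1 and 2 shared 2 of them, spleens 1 and 3 shared 1, spleens 2 and 3 shared 2, and the other spleen pairs shared 0. Of the 7 junctions of lymph node replicate 3 all were found in spleen 3, of the 9 of lymph node 2 there were 7 in spleen 2, and of the 5 of lymph node 4 there were 3 in spleen 4. Lymph node replicate 1 departed from this, with 7 of its 10 junctions in spleen 2 and 4 in spleen 1. Over all member clonotypes, 0.633% of lymph node 1 were found in spleen 1 and 1.46% in spleen 2, where spleen 1 held 3252 member clonotypes and spleen 2 held 41304, whereas lymph nodes 2, 3 and 4 shared most with the spleen of their own number (2.93%, 2.40% and 3.20%).

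In skin the set appeared in 2 of 4 replicates. Skin replicate 3 held 3 clonotypes with 61 copies and replicate 4 held 1 with 4 copies, and each was IgA and mutated (5.29% and 7.09%). The largest of replicate 3, with 59 copies, was found with 60 copies in spleen 3 and 6 copies in lymph node 3, and that of replicate 4 with 150 copies in spleen 4. The control held 4 clonotypes of the set with 9 copies, none of them IgA.

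**Figure D4:**
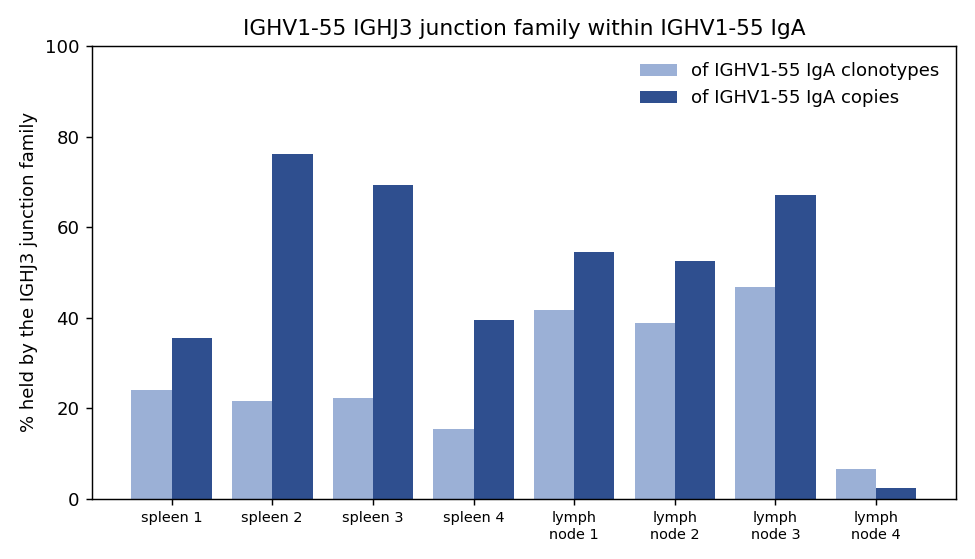
Percent of the IGHV1-55 IgA clonotypes (light bars) and IGHV1-55 IgA copies (dark bars) that belonged to the IGHJ3 junction set, by replicate of spleen and lymph node (vertical axis from 0 to 100%). In spleen the set held 15.4 to 24% of the clonotypes and 35.5 to 76.2% of the copies; the lymph node bars rest on 15 to 30 IgA clonotypes each.

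Single lineages held a large part of the copies of IGHV1-61 or IGHV1-59 in individual samples, and the gene shares without them were not computed. In spleen replicate 4, a lineage of IGHV1-61 with IGHJ3 held 578 clonotypes and 19782 copies, 85.4% of the gene's copies there and 96.8% IgA, at a mean mutation of 3.92%. The lineage of IGHV1-59 in spleen replicate 3, also with IGHJ3, held 100 clonotypes and 3524 copies, 56.9% of the gene's copies and 99.8% IgA. In lymph node replicate 2, a lineage of IGHV1-61 with IGHJ4 held 77 clonotypes and 2255 copies, 74.5% IgG2 and 25.4% IgG1. These 3 lineages were chosen after their values were seen, and the junction of the largest clonotype of each is given. Capitals mark the opening bases that match the unmutated V gene up to the first mismatch, so lower-case bases can include mutated V bases.
IGHV1-61, spleen replicate 4: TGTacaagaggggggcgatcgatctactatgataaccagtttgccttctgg
IGHV1-59, spleen replicate 3: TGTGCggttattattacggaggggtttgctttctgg
IGHV1-61, lymph node replicate 2: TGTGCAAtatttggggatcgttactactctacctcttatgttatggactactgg

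The first of these lineages made up 65.8% of the 875 IGHV1-61 IgA clonotypes of spleen 4, whereas the largest IgA lineage of the gene held 7 of 16, 10 of 238 and 6 of 56 clonotypes in spleens 1 to 3. Of its exact junctions, 2 were found in skin replicate 4 and 7 in lymph node replicate 4. For IGHV1-55 the largest IgA lineage held 37.6%, 34.6%, 34.4% and 22.7% of the IgA clonotypes in spleens 1 to 4. Another member had a higher share in spleen 1 (IGHV1-61, 43.8%), spleen 3 (IGHV1-59, 36.7%) and spleen 4 (IGHV1-61, 65.8%). The value over all V genes was not computed.

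CDR3 length and J pairing were compared between the IgM of spleen and lymph node. The mean CDR3 of IgM clonotypes was shorter in spleen than in lymph node for 5 of 6 tested members (61.6% of 73 V genes), by limma with Benjamini-Hochberg adjustment. IGHV1-54 had the largest of these differences, 12.1 ± 0.11 amino acids (SD, n = 4) in spleen against 12.5 ± 0.14 in lymph node ( difference -0.43, SE 0.09, adjusted p = 0.00760), and IGHV1-61 did not pass (-0.20, adjusted p = 0.132). The median over the members was -0.33 amino acids and over all V genes -0.33, and for IGHJ3 the medians were 3.08 and 3.37 points and for IGHJ4 -4.52 and -5.29 points.

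IGHJ3 was used more in spleen IgM than in lymph node IgM by 3 of 6 members (45.2% of 73 V genes) and IGHJ4 less by 4 of 6 (56.2%). IGHV1-55 had 12.4% ± 1.20 IGHJ3 (SD, n = 4) in spleen against 7.28% ± 1.16 in lymph node ( difference 5.10 points, SE 0.985; limma, Benjamini-Hochberg adjusted p = 0.0105). IGHV1-59 (3.47 points, adjusted p = 0.0347) and IGHV1-69 (2.69 points, adjusted p = 0.0347) passed too. IGHV1-55 kept its IGHJ3 call without any one of the 8 replicates, whereas both of the others lost theirs without spleen replicate 3 or 4 or any one lymph node replicate. IGHJ4 fell in IGHV1-55 from 35.3% ± 2.87 in lymph node to 29.1% ± 1.93 in spleen (difference -6.20 points, SE 1.80, adjusted p = 0.0250), and also passed in IGHV1-50 (-5.71), IGHV1-69 (-4.68) and IGHV1-54 (-4.35). The 4 IGHJ4 calls fell to 2 without spleen replicate 1 or lymph node replicate 3 or 4 and to 1 without spleen replicate 3. With replicate number as a block across tissues, the IGHJ3 calls fell from 3 to 1 and the IGHJ4 calls from 4 to 2. Without spleen replicate 4 no member and no V gene of 73 passed for IGHJ4, although 38 of the 73 had an unadjusted p under 0.05.

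The 141 member clonotypes of skin were few enough to trace. Of these, 13 had the same V gene, J gene and junction in the spleen of the same number and 0 in a spleen of another number; 3 were found in the lymph node of the same number and 0 in another. Skin 4 gave 7 of the 13, skin 3 gave 5 and skin 2 gave 1, and none of the 37 member clonotypes of skin 1 was found in spleen or lymph node.

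The largest member clonotypes of each tissue that were seen in both technical libraries are given. Capitals again mark the opening bases that match the unmutated V gene up to the first mismatch, and lower-case bases can include mutated V bases. In skin all 3 were IgA, and in spleen all 3 were IGHV1-55 with IGHJ3, 2 of them of the recurrent set. In lymph node replicate 2 the largest was an IgM clonotype of IGHV1-69 with no mutation, and the next were an IGHV1-61 clonotype with 75.3% of its copies IgG2 and another with 53.9% IgM.
Skin 4, IGHV1-50 IGHJ2, 336 copies, mutation 7.67%: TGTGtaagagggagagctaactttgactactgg
Skin 3, IGHV1-69 IGHJ2, 259 copies, mutation 8.04%: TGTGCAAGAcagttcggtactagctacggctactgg
Skin 3, IGHV1-55 IGHJ3, 137 copies, mutation 1.48%: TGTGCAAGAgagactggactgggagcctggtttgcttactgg
Spleen 4, IGHV1-55 IGHJ3, 4331 copies, mutation 7.82%: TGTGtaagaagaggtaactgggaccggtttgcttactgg
Lymph node 2, IGHV1-69 IGHJ2, 1736 copies, mutation 0%: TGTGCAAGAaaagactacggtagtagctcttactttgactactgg
Lymph node 2, IGHV1-61 IGHJ2, 934 copies, mutation 0.869%: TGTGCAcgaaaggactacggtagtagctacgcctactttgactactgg
Lymph node 2, IGHV1-61 IGHJ2, 880 copies, mutation 0%: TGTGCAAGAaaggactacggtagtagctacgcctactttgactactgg

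These clonotypes made up large parts of a gene's copies in their sample: 86.8% for IGHV1-50 in skin 4, 95.2% for IGHV1-69 in skin 3 and 27.9% for IGHV1-69 in lymph node 2. Few member clonotypes recurred between replicates. Between 0.255% (IGHV1-52) and 1.69% (IGHV1-55) of distinct clonotypes were found in 2 or more of the 12 tissue replicates, against 1.63% over all V genes. The 2 found in the most replicates, 6 each, had short CDR3s of 7 and 5 amino acids.
IGHV1-55 IGHJ4, 37 copies: TGTGCAAGAggggctatggactactgg
IGHV1-69 IGHJ2, 14 copies: TGTGCAAGAgaggactactgg

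In the positive control the members differed from the tissues in sequence as well as in use. Not one of its clonotypes of IGHV1-50 (107), IGHV1-52 (115), IGHV1-55 (2330), IGHV1-59 (443) or IGHV1-61 (1160) had a sequence without V mismatches, which for IGHV1-55 allows a share of up to 0.129%. For IGHV1-69 the share was 12.0% and for IGHV1-54 49.8%. In lymph node the corresponding shares were 56.2% (IGHV1-61) to 73.7% (IGHV1-52). The control's IGHV1-54 was called as allele 03 in 84.3% of sequences, and the tissues' as allele 01 in 89.1% (spleen) and 90.2% (lymph node).

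The mismatches of the control recurred at fixed positions. The most common control sequence of the 144-base stretch is shown for 3 genes, with capitals at the bases that differ from the tissue sequence of that gene and positions counted from 1 at the first base.
IGHV1-55: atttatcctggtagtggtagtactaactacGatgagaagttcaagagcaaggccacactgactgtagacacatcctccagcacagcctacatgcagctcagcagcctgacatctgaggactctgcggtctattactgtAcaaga
IGHV1-61: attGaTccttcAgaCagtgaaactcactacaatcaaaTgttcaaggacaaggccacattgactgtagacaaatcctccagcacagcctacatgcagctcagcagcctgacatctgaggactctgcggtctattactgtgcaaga
IGHV1-69: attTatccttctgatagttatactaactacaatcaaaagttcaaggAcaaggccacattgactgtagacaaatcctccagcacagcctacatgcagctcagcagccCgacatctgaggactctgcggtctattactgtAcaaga

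The IGHV1-55 sequence carried A31G and G139A and made up 28.5% of 1946 control sequences. The IGHV1-61 sequence carried T4G, C6T, T12A, T15C and A38T and made up 52.2% of 980, and it lay nearer to the tissue sequence of IGHV1-52 (4 differences) than to that of IGHV1-61 (5). The IGHV1-69 sequence carried G4T, G47A, T107C and G139A and made up 35.9% of 3111. The mismatch-based mutation values of the control (2.41% in IGHV1-55 IgM, 4.06% in IGHV1-61 IgM) therefore count these recurrent differences, and the control was kept out of every test.

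**Figure D5:**
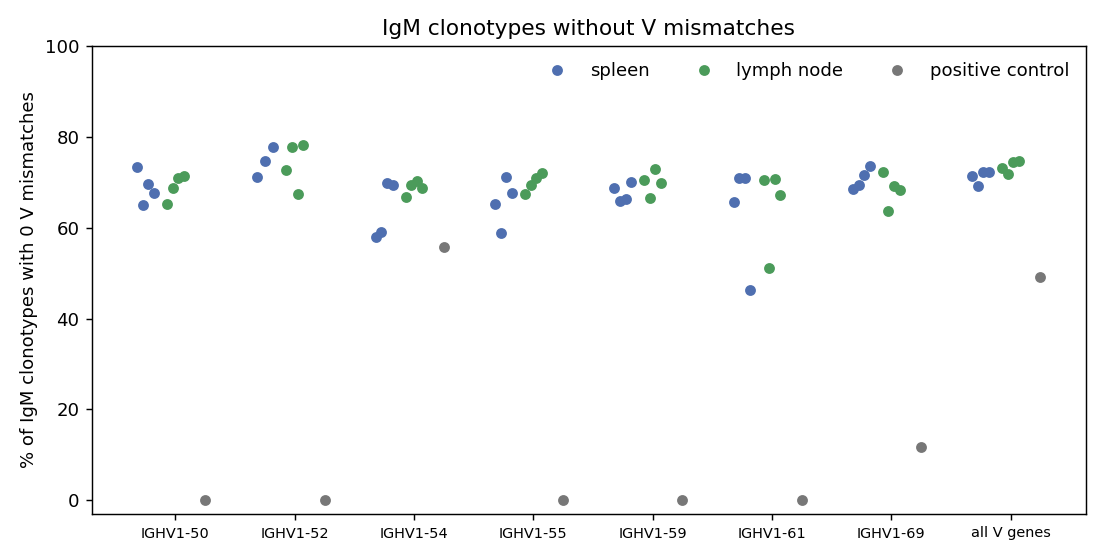
Percent of IgM clonotypes with a sequence of 0 V mismatches (vertical axis, 0 to 100%) for the 7 genes and all V genes, with a point for each replicate of spleen, lymph node and positive control with 20 or more IgM clonotypes. Spleen and lymph node lie between 46.3 and 78.3%, and the control lies at 0 for 5 genes, at 11.6% for IGHV1-69 and at 55.8% for IGHV1-54.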

How the data were processed

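Heavy-chain RNA was sequenced with 10-base molecular identifiers and a V primer mix, per the labels' protocols; the build is mm10, per the submitters' processing notes, and no aligner is named in the sources used here. The authors deposited a table per technical library with the count of copies of each distinct sequence; whether copies are identifiers or reads is not stated. V mismatches and aligned lengths are the authors' deposited values. Technical tables were summed per replicate. Clonotypes per V gene were tested with edgeR 4.0.16 (quasi-likelihood, TMM, filterByExpr, adjusted p under 0.05), with replicate as a block between isotypes. IgM values per V gene with 20 or more clonotypes in each of 8 replicates were tested with limma 3.58.1. DESeq2 1.42.0 was an alternative. All 7 members are named; other genes are named as the nearest segment or the most alike in use, and clonotypes as the largest by copies or the most widely found. The members and lists were chosen with earlier results of these data known. Replicate numbers of different tissues were not taken as pairs in the tests (correlations of deviations -0.17 to 0.26). Of the member clonotypes of skin, however, 13 recurred in the spleen of the same number and 0 in a spleen of another number. On simulated data the tests found 50 to 95% (tissues), 65 to 100% (isotypes) and 95 to 100% (IgM values) of 20 changed genes. How far these shares hold for differences as small as those of the members was not tested. Other software was Python 3.11.15 and R 4.3.3.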

Additional observations from a re-analysis of the deposited data

Results flagged for a closer look

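In 11 of 107 groups of 4 samples, 1 sample lay far from the other 3 by Dixon's test, which chance gives in about 1 group of 20. For IGHV1-69 these were skin replicate 1, with 1.43% of clonotypes (next value 1.82%), and spleen replicate 2, with 1.77% (next 2.35%). IGHV1-61 stood apart in lymph node replicate 2, both in use (1.57%, next 0.914%) and in IgM mutation (0.984%, next 0.505%), and in the IgA of spleen replicate 4 (5.0%, next 0.710%), the sample with the lineage of 578 clonotypes.

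Spleen replicate 1, the shallowest spleen, held 4 of the 11. Its IgA share was 0.905% for IGHV1-50 (next 1.36%) and 0.233% for IGHV1-52 (next 0.0806%), its IgG2 share was 6.48% for IGHV1-54 (next 1.49%), and its mean IgM CDR3 was 12.2 amino acids for IGHV1-54 (next 12.0). The part of depth in these values was not tested. In lymph node, the mean IgM CDR3 of IGHV1-52 was 13.7 amino acids in replicate 1 (next 12.3), and IGHJ4 made up 38.0% of IGHV1-50 IgM in replicate 3 (next 33.0%).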

How the results depend on the processing

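No difference with a call changed sign; over single genes and settings, 777 kept their side of the threshold, 34 gained and 59 lost a call, and causes were not tested. Counts below are of members called, and counts over all V genes follow in the next paragraph for some settings only. Skin against spleen went from 0 to 1 with DESeq2, copies or IgM alone (0 to 1 without single replicates, 1 without skin replicate 3), and skin against lymph node from 0 to 1 with DESeq2 or copies (0 throughout without single replicates). Spleen against lymph node went from 0 to 3 with DESeq2, to 2 with only these tissues, and to 1 with no filter, clonotypes of 2 or more copies, IgM alone, 0-mismatch clonotypes or 1 V call per junction (0 to 1 without single replicates). IgA against IgM in spleen went from 3 to 0 for 0-mismatch clonotypes, 1 without the replicate block, 2 with DESeq2, no filter or clonotypes of 2 or more copies and 4 for lineages (1 to 2 without single replicates). IgG2 against IgM in spleen went from 1 to 0 with no filter, without the junction set or without the replicate block, to 2 for clonotypes of 2 or more copies or 0 mismatches, and to 3 for lineages (0 to 1 without single replicates). In lymph node it went from 0 to 1 for lineages or without the replicate block (0 to 1). V mutation stayed at 0 (0 to 0). CDR3 length went from 5 to 3 over every isotype (4 to 6). IGHJ3 went from 3 to 1 with 2 or more copies or with the replicate block and to 5 over every isotype (1 to 3), and IGHJ4 from 4 to 2 with the replicate block (0 to 4).

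With replicate number as a block across tissues, members called in gene use stayed at 0 in all 3 comparisons, while V genes called went from 7 to 1 (skin against spleen) and from 20 to 11 (spleen against lymph node). Over all V genes, DESeq2 called 49 in place of 7 (skin against spleen), 36 in place of 0 (skin against lymph node) and 35 in place of 20 (spleen against lymph node). Copies called 13 and 13 in both skin comparisons, and the fit of only spleen and lymph node 38. IgA against IgM called 29, 6 without the block and 2 for 0-mismatch clonotypes, and IgG2 against IgM in spleen 10, 3 and 26 (lineages). IgG2 in lymph node called 0, 14 for lineages and 16 without the block. The 1267 clonotypes of skin limit every skin value. The settings with 0-mismatch clonotypes, 1 V call per junction and without the junction set were chosen after seeing the data.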

Other observations

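Substitutions in spleen IgA recurred at a few positions of the 144-base stretch, counted from 1 at its first base. G20A was found in 22.6% of 4854 IGHV1-55 sequences and 28.5% of 1346 IGHV1-54 sequences, and A19G in 21.0% of those of IGHV1-55. G47A was found in 21.1% of 1155 IGHV1-59 and 12.3% of 1644 IGHV1-69 sequences. IGHV1-61 carried G139A in 28.2% and G17C in 20.9% of 1813 sequences; how many belong to the expanded lineage of spleen replicate 4 was not tested. Sequences of one lineage share substitutions, so these shares do not count separate events.

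Over the 8 spleen and lymph node replicates, the non-member whose normalised use was most like that of a member was IGHV1-15 for IGHV1-52 (Pearson r = 0.990), IGHV14-1 for IGHV1-55 (0.981), IGHV1-78 for IGHV1-50 (0.925) and IGHV1-59 (0.791), IGHV1-82 for IGHV1-54 (0.923), IGHV9-2 for IGHV1-61 (0.860) and IGHV1-72 for IGHV1-69 (0.850). Each is the highest of many correlations and is given as a description, since the 8 points fall into 2 tissues and share their libraries across genes.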
